A study of Mus musculus with 20 samples.

Results

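MHC class I and the genes that supply its peptides were followed in mouse liver through 10 members: the heavy chains *H2-K1*, *H2-D1* and *H2-T23*, the light chain *B2m*, the peptide transporter and its docking protein (*Tap1*, *Tap2*, *Tapbp*), and the immunoproteasome subunits *Psmb8*, *Psmb9* and *Psmb10*. Every probe set whose annotation is or includes a member was taken, whatever its values, which gave 31 of 45101 probe sets. Of these, 26 are annotated to 1 gene and 5 to several genes. The study compared livers of 10 mice labelled p62 transgenic, called *IMP2-2* tg here after the study's own name, with livers of 10 wildtype (wt) mice. All mice were 5 weeks old and untreated, and all had the mixed background strain C57Bl6J/DBA2. IMP2-2, also called p62, is a splice variant of the RNA-binding protein IMP2, and the methods do not name the promoter of the transgene. No probe set is annotated to *Igf2bp2* alone here, so the transgene itself was not checked. Each liver was read on 1 array, and the values are log2 signals normalized by the authors with RMA, so that a difference of 1 stands for a 2-fold change.

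MHC class I molecules display short peptides from the inside of a cell on its surface, where CD8 T cells and NK cells read them. The proteasome cuts proteins into peptides, TAP pumps the peptides into the endoplasmic reticulum, and tapasin, the product of *Tapbp*, holds TAP next to an empty heavy chain until a peptide fits. Interferons raise nearly all of these genes, and they replace the 3 catalytic subunits of the core proteasome with the immunoproteasome subunits encoded by *Psmb8*, *Psmb9* and *Psmb10*. In liver, hepatocytes have little class I at rest, while Kupffer cells and sinusoidal endothelium have more. *H2-K1*, *H2-D1*, *H2-T23*, *Tap1*, *Tap2*, *Tapbp*, *Psmb8* and *Psmb9* lie in the H2 complex on chromosome 17, which differs between C57BL/6 mice (haplotype b) and DBA/2 mice (haplotype d). The haplotype of the mice is not in the labels.

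Promoters of 4 members are shown because class I genes share a set of known upstream elements: an NF-kB-type site, an interferon element, and a module read by the factors that recruit NLRC5. RefSeq (GRCm38.p6) gave 300 bases, 250 before to 50 after the start, for 9 of the 10 members. The reference is a C57BL/6 genome, and the alleles of these mice were not read. Capitals mark matches on either strand to GGGA, 4 bases of any kind and CC (NF-kB type), AANNGAAA (part of the interferon element), TGACG and CCAAT (parts of the NLRC5 module). The *H2-K1* window is chr17:34000298-34000597 (minus strand), that of *H2-D1* is chr17:35262844-35263143 (plus strand), that of *B2m* is chr2:122147437-122147736 (plus strand) and that of *Tap1* is chr17:34187306-34187605 (plus strand).
H2-K1: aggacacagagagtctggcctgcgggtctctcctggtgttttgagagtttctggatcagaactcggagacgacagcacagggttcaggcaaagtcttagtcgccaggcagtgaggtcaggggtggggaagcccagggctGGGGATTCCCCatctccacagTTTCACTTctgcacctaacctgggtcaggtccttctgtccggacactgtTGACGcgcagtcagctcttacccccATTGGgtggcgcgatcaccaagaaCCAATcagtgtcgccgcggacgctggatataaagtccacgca
H2-D1: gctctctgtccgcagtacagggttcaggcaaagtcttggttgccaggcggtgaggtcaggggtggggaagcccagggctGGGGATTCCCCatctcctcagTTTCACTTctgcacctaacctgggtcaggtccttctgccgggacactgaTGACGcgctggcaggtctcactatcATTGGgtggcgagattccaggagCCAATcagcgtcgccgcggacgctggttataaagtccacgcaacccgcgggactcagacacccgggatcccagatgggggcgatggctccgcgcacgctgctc
B2m: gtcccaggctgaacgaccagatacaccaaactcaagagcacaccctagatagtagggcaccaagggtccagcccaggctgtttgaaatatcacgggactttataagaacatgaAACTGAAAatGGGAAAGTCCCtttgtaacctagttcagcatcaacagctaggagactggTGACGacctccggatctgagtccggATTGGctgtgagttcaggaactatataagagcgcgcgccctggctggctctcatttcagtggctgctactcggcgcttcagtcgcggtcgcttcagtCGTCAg
Tap1: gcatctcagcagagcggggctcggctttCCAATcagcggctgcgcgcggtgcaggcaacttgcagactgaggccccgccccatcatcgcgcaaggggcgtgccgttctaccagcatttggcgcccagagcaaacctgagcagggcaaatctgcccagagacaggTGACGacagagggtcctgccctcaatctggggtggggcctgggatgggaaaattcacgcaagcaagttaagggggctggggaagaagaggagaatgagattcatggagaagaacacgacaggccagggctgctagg

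The first match to each of the 4 motifs came in the same order in the *H2-K1* and *H2-D1* windows. They lay 60 bases further from the start in *H2-D1*, and 176 of 240 bases (73.3%) are identical at that shift. These distances depend on the start that is used. RefSeq lists 2 *H2-K1* promoters, with windows 14 bases apart. The first was used here, and 1 of its CCAAT matches lies after the start. In *H2-K1* the NF-kB-type match lies 110 to 101 bases before the start and overlaps its own match on the other strand, and the interferon match lies 90 to 83 bases before the start. *B2m*, on another chromosome, holds all 4 motifs too, with the interferon match at 137 to 130 bases before the start and the NF-kB-type match at 127 to 118 bases. The *Tap1* window shares 275 bases with that of *Psmb9*, which starts nearby on the opposite strand, and it holds TGACG and CCAAT but neither of the others. Of the 9 member promoters, 3 hold the NF-kB-type motif, 4 hold AANNGAAA, 5 hold TGACG and 7 hold CCAAT. The TGACG and CCAAT matches of *Tap1* and *Psmb9* are the same bases read on opposite strands. The *H2-K1* and *H2-D1* windows are alike as well, so these counts are not of independent promoters. The shares of all 32851 promoters in the table are 20.7% for the NF-kB-type motif, 23.9% for AANNGAAA, 20.8% for TGACG and 37.4% for CCAAT. These matches describe the letters only, and no binding was measured.

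Array medians were close to each other (4.46 to 4.55), and 10 arrays per genotype limit how precise any value can be. A pair of wt arrays, wt_1407_2 and wt_1420_6, were nearly identical (their log2 differences had an SD of 0.168), as were wt_1407_5 and wt_1420_7 (0.172), where other wt pairs gave 0.228 to 0.401. Each pair enters the wt means and SDs as 1 profile (n = 8). All 20 arrays stayed in the limma fits, so a fitted difference can depart from the difference of the printed means. If the arrays of such a pair are not separate livers, the SEs and p values of these fits are likely too small. The array tg_1386_9 was closest to wt_1386_4 (0.155) and was kept under its label. Defining hepatocyte markers such as *Alb* were high on all arrays (mean 14.4), as the tissue label says. In whole liver, fewer cells of a type and less RNA per cell cannot be told apart.

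Class I and antigen processing genes were higher in livers of *IMP2-2* tg mice. In limma with Benjamini-Hochberg adjustment over all probe sets, 17 of the 31 probe sets (54.8%) were higher in tg livers at an adjusted p under 0.05 and 0 were lower, where 1.88% of all probe sets were higher and 0.663% were lower. The members were chosen with earlier results of these data known, so these shares are descriptions with no set test. Differences are tg minus wt. An unadjusted p under 0.05 was found for 26 of the 31 and for 20.4% of all probe sets. The difference was positive in 29 of 31, with a median of 0.60 on the log2 scale, against -0.03 over all probe sets. Over the whole array 850 probe sets were higher and 299 lower, a split that became 682 and 476 when arrays were quantile normalized again and 969 and 156 when each array was centred on its median. With the number that array names of both genotypes share as a replicate block, 1634 were higher and 607 lower, 22 of the 31 member probe sets among the higher ones. All 17 belong to the 24 probe sets with a mean above 4.53, the median of all probe set means, and 3.42% of all probe sets above that median were called higher. The 7 dimmer probe sets gave 0 calls. In the fit without the block, every member but *Psmb10* had at least 1 probe set called higher. For *H2-T23* that was a probe set shared with another gene. With the nearly identical wt pairs averaged, fewer of the 31 were called, and *B2m*, *Tap2* and *Tapbp*, like *Psmb10*, had no call. Fewer still were called without the arrays named tg_1423_2-8 or wt_1423_2-8, as given further on.

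**Figure D1:**
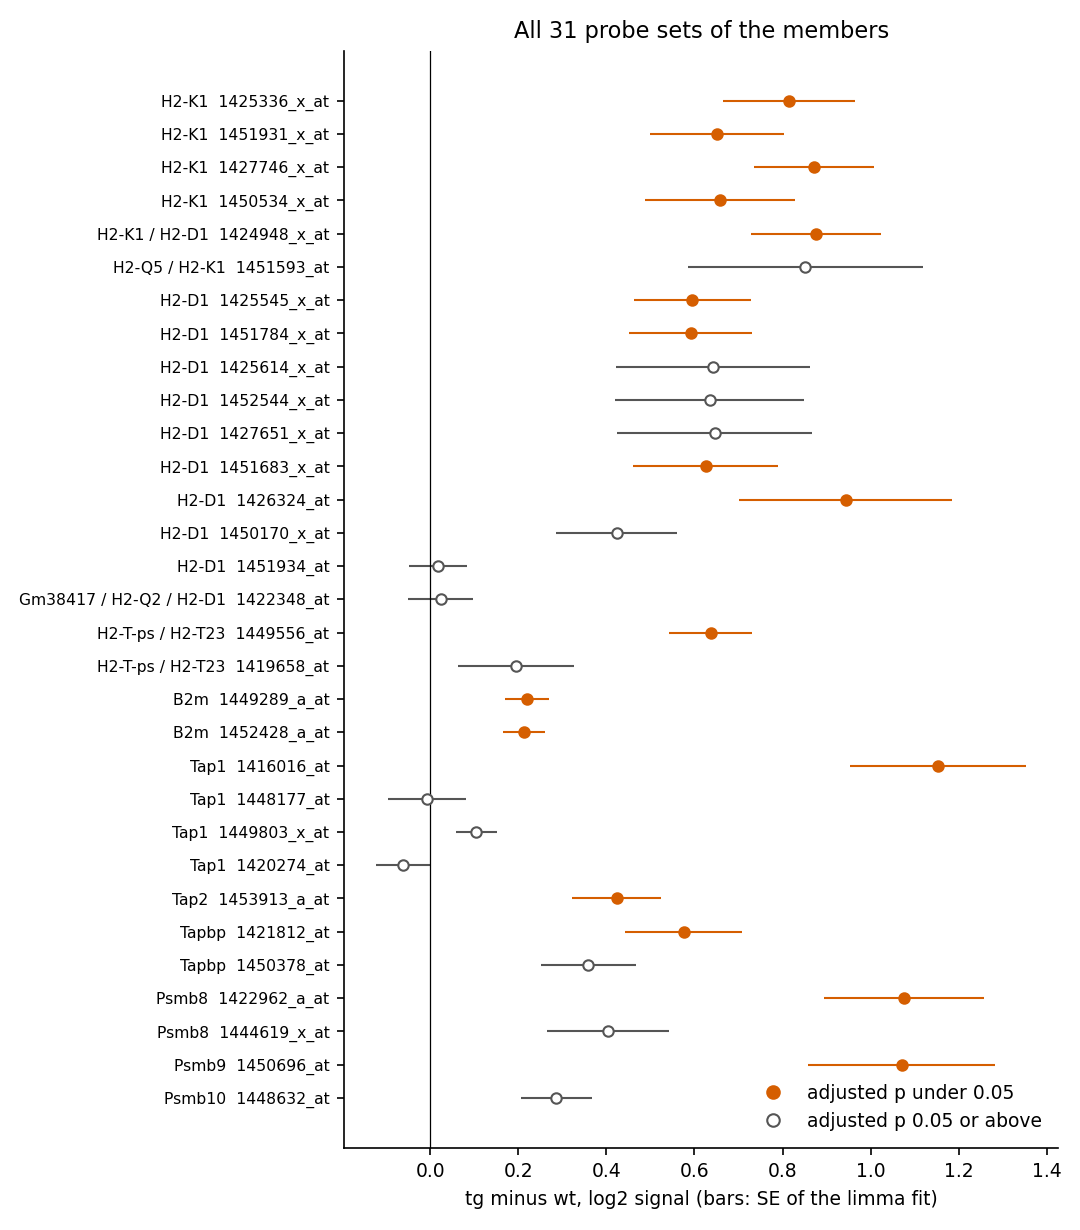
Difference between tg and wt livers (log2 signal, tg minus wt, with the SE of the limma fit) for all 31 probe sets, filled where the adjusted p is under 0.05. The 17 filled points lie between 0.21 (*B2m*) and 1.15 (*Tap1*), and the open points near 0 are dim probe sets of *H2-D1*, *Tap1* and *H2-Q2*.

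*H2-K1*, 1 of the classical heavy chains, was read by 4 probe sets of its own, and all 4 were higher in tg livers. The brightest (1425336_x_at) had 12.17 as the lowest, 12.43 as the median and 13.24 as the highest log2 signal in tg livers, against 11.45, 11.66 and 12.29 in wt livers. The groups overlapped through wt_1371_4 (12.29), which lay above 3 tg arrays, tg_1386_9, tg_1420_12 and tg_1420_14. The wt arrays wt_1386_4 and wt_14231_2 came next at 12.14 and 12.09, and the other 7 wt arrays stayed at or below 11.71. Means were 12.57 ± 0.41 in tg livers (SD, n = 10) and 11.81 ± 0.32 in wt livers (SD, n = 8). The difference was 0.81 ± 0.15 (SE), 1.76-fold, with an adjusted p of 0.00741 in limma. The second of these, 1427746_x_at, read 10.91, 11.25 and 12.03 as lowest, median and highest in tg livers, against 10.115, 10.43 and 10.97 in wt livers, with tg_1386_9 as the only tg array within the wt range. The others read 11.63 to 12.95 (1451931_x_at) and 7.23 to 8.59 (1450534_x_at) in tg livers, against 11.48 to 11.93 and 6.61 to 7.39 in wt livers. Differences were 0.87 (1427746_x_at, adjusted p = 0.00176), 0.65 (1451931_x_at, 0.0277) and 0.66 (1450534_x_at, 0.0432). In all 4 the highest tg arrays were tg_1420_4, tg_1423_2-8_1 and tg_1423_2-8_4. When each array was left out in turn, 1425336_x_at and 1427746_x_at kept their calls in all 20 fits, 1451931_x_at in 14 and 1450534_x_at in 7.

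Probe sets named _x_at may also bind related sequences, and the heavy chain genes are close copies, so a signal may not belong to the named gene alone. Over the 20 arrays, after the genotype means were removed, 1425336_x_at had r = 0.94 with 1427746_x_at and with 1450534_x_at, yet 0.63 with 1451931_x_at, which in turn had r = 0.99 with the brightest *H2-D1* probe set. These correlations are descriptions over arrays that share 1 normalization. A probe set annotated to both *H2-K1* and *H2-D1* (1424948_x_at) had 10.94, 11.15 and 12.06 as the lowest, median and highest signal in tg livers, against 10.18, 10.31 and 10.93 in wt livers. Here every tg array lay above every wt array, which was so for 2 of the 31 probe sets and 0.071% of all, while 0 of 31 and 0.00887% of all had every tg array below every wt array. The difference was 0.88 ± 0.15 (SE, adjusted p = 0.00341 in limma). A probe set annotated to *H2-Q5* and *H2-K1* (1451593_at) read 7.05, 8.27 and 9.63 in tg livers, against 7.14, 7.31 and 8.03 in wt livers. It differed by 0.85 ± 0.27 (SE), with an adjusted p of 0.0822, and of 0.0166 with the replicate block. That block fit counts the nearly identical wt arrays separately, and 1451593_at was not called with those wt pairs averaged. The arrays tg_1371_2, tg_1386_9 and tg_14231_6 read 7.05 to 7.29, below the highest wt array.

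*H2-D1*, the other classical heavy chain of haplotype b, was read by 9 probe sets of its own, of which 4 were higher in tg livers. The brightest (1425545_x_at) read 11.96, 12.67 and 13.07 as lowest, median and highest in tg livers, against 11.75, 11.99 and 12.23 in wt livers. It overlapped because tg_1371_2, tg_1386_9 and tg_14231_6 (12.04, 11.96 and 12.20) stayed within the wt range, while the other 7 tg arrays lay above all wt arrays. Its difference was 0.60 ± 0.13 (SE, adjusted p = 0.0234 in limma). The next, 1451784_x_at, differed by 0.59 (adjusted p = 0.0299), and 1451683_x_at differed by 0.63 (adjusted p = 0.0456). The largest difference of the gene was that of 1426324_at, the only one above the median of all probe sets without a suffix for shared sequence. It read 6.67, 7.77 and 9.01 as lowest, median and highest in tg livers, against 6.65, 6.86 and 7.05 in wt livers. Again the 7 tg arrays other than tg_1371_2, tg_1386_9 and tg_14231_6 lay above all wt arrays, and the difference was 0.94 ± 0.24 (SE, adjusted p = 0.0414). The calls of 1426324_at and 1451683_x_at held in only 4 and 3 of the 20 fits with an array left out, that of 1451784_x_at in 13 and that of 1425545_x_at in all 20.

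Another 3 *H2-D1* probe sets, 1425614_x_at, 1452544_x_at and 1427651_x_at, split the arrays differently. The first read 10.03, 11.36 and 11.99 as lowest, median and highest in tg livers, against 9.88, 10.59 and 10.80 in wt livers, and tg_1371_2, tg_1386_9 and tg_14231_6 (10.35, 10.03 and 10.18) lay below 7 of the 10 wt arrays. The 3 probe sets gave differences of 0.64, 0.63 and 0.65, with adjusted p values of 0.107, 0.103 and 0.107 in limma. With the replicate block, which counts the nearly identical wt arrays separately, the adjusted p values were 0.00463, 0.00460 and 0.00425. None of the 3 was called with those wt pairs averaged. All 3 split the wt livers as well, as described further on. The last bright one, 1450170_x_at, gave 0.42 (adjusted p = 0.0907), and a dim one (1451934_at, mean 2.95) gave 0.02.

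*H2-T23* encodes Qa-1, a non-classical heavy chain that shows leader peptides of other class I chains to NK cell receptors. Both of its probe sets are shared with the pseudogene *H2-T-ps*, so the signal cannot be given to *H2-T23* alone. The bright one (1449556_at) read 11.85, 12.31 and 12.66 as lowest, median and highest in tg livers, against 11.38, 11.67 and 11.82 in wt livers. It was the other probe set without any overlap between the genotypes. The difference was 0.64 ± 0.09 (SE), 1.56-fold, with an adjusted p of 0.00115 in limma, the smallest of the 31. The dim one (1419658_at, mean 3.92) gave 0.19 with an adjusted p of 0.419.

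*B2m* encodes beta-2 microglobulin, the light chain that every class I heavy chain needs, and it lies outside the H2 complex. Its brighter probe set (1449289_a_at) read 13.36, 13.51 and 13.77 as lowest, median and highest in tg livers, against 13.24, 13.32 and 13.38 in wt livers. Of the 10 tg arrays, 8 lay above all wt arrays, and tg_1386_9 and tg_14231_6 did not. The differences of its 2 probe sets were small, 0.22 ± 0.05 (SE, adjusted p = 0.0254) and 0.21 ± 0.05 (SE, adjusted p = 0.0228), or 1.16-fold in either case.

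The transporter genes rose next to the heavy chains. *Tap1*, which encodes the first subunit of the TAP transporter, had the largest difference of all 31 probe sets (1416016_at). It read 7.46, 8.03 and 9.16 as lowest, median and highest in tg livers, against 6.57, 7.09 and 7.49 in wt livers. All tg arrays but tg_1386_9 and tg_14231_6 lay above all wt arrays, and tg_1420_4, tg_1423_2-8_1 and tg_1423_2-8_4 were the highest at 9.16, 9.04 and 8.93. The difference was 1.15 ± 0.20 (SE), 2.22-fold, with an adjusted p of 0.00490 in limma. The other 3 *Tap1* probe sets had means between 2.21 and 4.004, below the median of all probe sets, and differences between -0.06 and 0.10 that were not called.

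*Tap2*, the partner subunit, had 1 probe set, which read 6.46, 6.85 and 7.39 as lowest, median and highest in tg livers, against 6.18, 6.51 and 6.67 in wt livers. Means were 6.89 ± 0.31 in tg livers (SD, n = 10) and 6.47 ± 0.12 in wt livers (SD, n = 8). Its difference was 0.42 ± 0.10 (SE, adjusted p = 0.0323 in limma), with 7 tg arrays above all wt arrays. *Tapbp*, which encodes tapasin, read 9.53, 9.84 and 10.63 as lowest, median and highest in tg livers, against 9.13, 9.37 and 9.77 in wt livers, with a difference of 0.58 ± 0.13 (SE, adjusted p = 0.0275). Of the 10 tg arrays, tg_1386_9, tg_1407_3 and tg_14231_6 lay within the wt range. Its dimmer probe set read 6.67 to 7.63 in tg livers and 6.50 to 7.03 in wt livers and gave 0.36 with an adjusted p of 0.0734, so the call rests on 1 of 2 probe sets.

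Among the immunoproteasome subunits, *Psmb8* and *Psmb9* were about 2-fold higher in tg livers, and *Psmb10* was not called. *Psmb8*, which encodes the chymotrypsin-like subunit LMP7, read 8.26, 9.53 and 10.21 as lowest, median and highest in tg livers, against 8.23, 8.33 and 8.48 in wt livers. The wt arrays lay close together (SD 0.09, n = 8) and the tg arrays were spread (SD 0.62, n = 10). Only tg_1386_9, at 8.26, fell within the wt range. The difference was 1.08 ± 0.18 (SE, adjusted p = 0.00363 in limma), and a dim probe set of the gene gave 0.40 (adjusted p = 0.106). *Psmb9*, which encodes the subunit LMP2, read 8.25, 9.39 and 10.34 as lowest, median and highest in tg livers, against 8.09, 8.32 and 8.63 in wt livers. Here tg_1386_9 and tg_14231_6 fell within the wt range, and the difference was 1.07 ± 0.21 (SE, adjusted p = 0.0126). *Psmb10*, which encodes the trypsin-like subunit MECL-1 and lies outside the H2 complex, read 8.30, 8.62 and 8.91 as lowest, median and highest in tg livers, against 8.08, 8.30 and 8.74 in wt livers. The groups overlapped broadly, with a difference of 0.29 ± 0.08 (SE), an adjusted p of 0.0606 in limma, and 0.0331 with the replicate block. That block fit counts the nearly identical wt arrays separately, and *Psmb10* was not called with those wt pairs averaged.

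**Figure D2:**
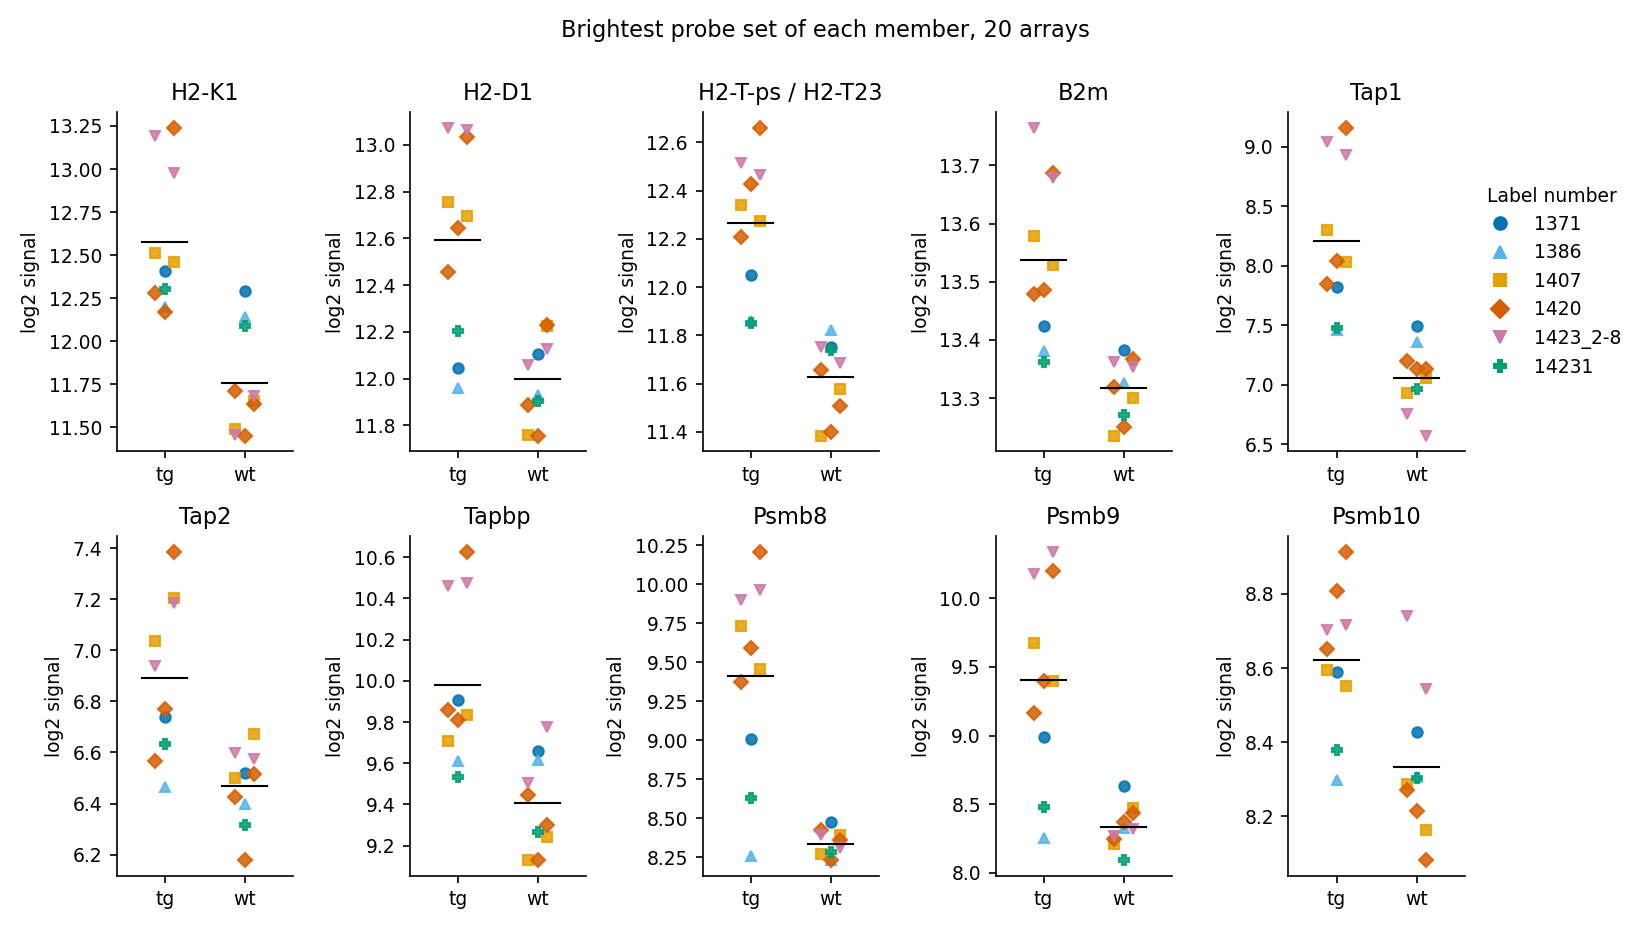
Log2 signal of the brightest probe set of each member on the 20 arrays, tg left and wt right, with colours and symbols for the number in the array name and a line at the mean of the 10 arrays of a genotype. Among the panels only that of *H2-T-ps* and *H2-T23* shows no overlap, tg_1386_9 lies within the wt range in *Psmb8* (8.26), and the highest tg array is always tg_1420_4 or a tg_1423_2-8 array.

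Array names carry a number that occurs in both genotypes, as in tg_1407_3 and wt_1407_2, and its meaning is not given. There are 6 such numbers, and 3 of them have 1 array per genotype, which gives 3 single pairs: tg_1371_2 with wt_1371_4, tg_1386_9 with wt_1386_4, and tg_14231_6 with wt_14231_2. Within numbers the difference between tg and wt livers was uneven. Over the 24 brighter probe sets, the median difference was 0.82 between the tg_1407 and wt_1407 arrays (2 and 2), 0.78 between tg_1420 and wt_1420 (3 and 3) and 1.002 between tg_1423_2-8 and wt_1423_2-8 (2 and 2), with 24 of 24 higher in each. The first 2 of these values are not independent, since both wt_1407 arrays have a nearly identical profile among the wt_1420 arrays. In the single pairs it was 0.14 between tg_1371_2 and wt_1371_4, 0.03 between tg_1386_9 and wt_1386_4, and 0.27 between tg_14231_6 and wt_14231_2, with 19, 16 and 22 of 24 higher. The profiles of tg_1386_9 and wt_1386_4 were the closest of all array pairs (SD 0.155), closer than the nearly identical wt pairs. The median of all probe sets above the median mean lay between -0.01 and 0.01 in every number. In 13 of the 31 probe sets the tg mean was above the wt mean within each of the 6 numbers, against 3.66% of all probe sets. These within-number values are descriptions with no test. An interaction of genotype and array name number was called for 0 of the 31 probe sets in limma, against 0.0155% of all. At an unadjusted p under 0.05 it was found for 14 of 31, against 6.51% of all. The interaction fit has 8 residual degrees of freedom, so 0 calls do not show that the difference was even. In simulated data it found 34 of 100 interactions of 1 on the log2 scale and 88 of 100 of 2.

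**Figure D3:**
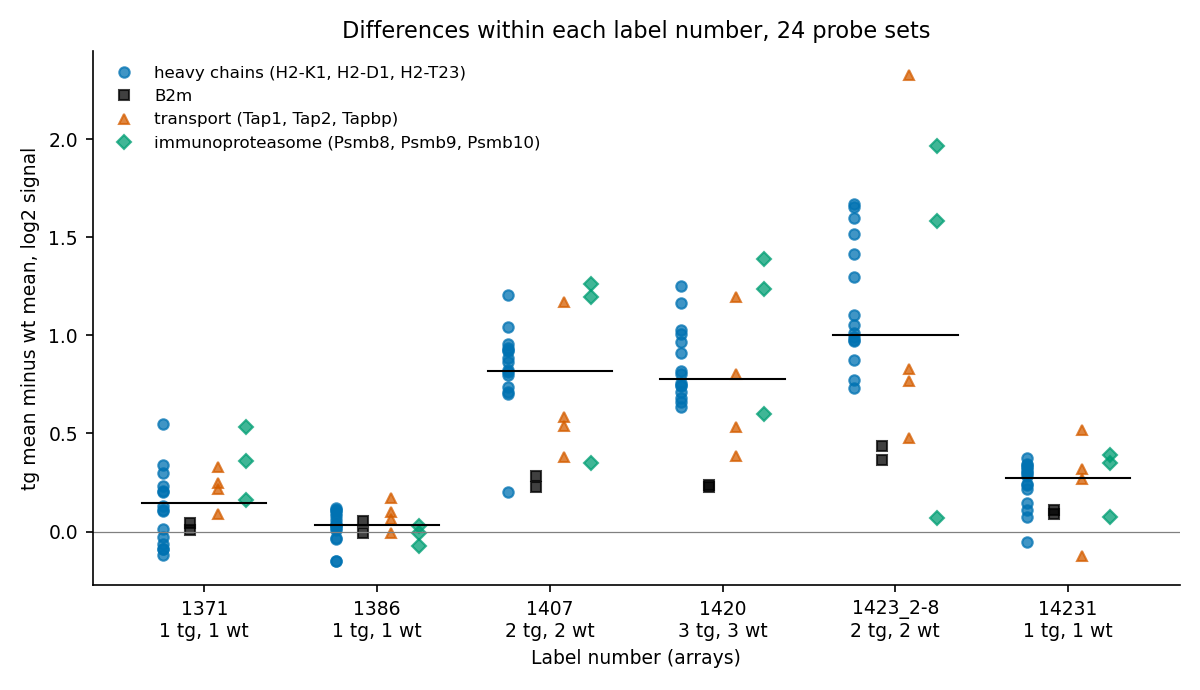
Tg mean minus wt mean (log2 signal) within each number in the array names for the 24 brighter probe sets, by role, with a line at the median of the 24. Medians are 0.14, 0.03, 0.82, 0.78, 1.002 and 0.27 from left to right, and *B2m* stays below 0.5 in every number.

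Among wt livers alone, the heavy chain probe sets did not all vary together. The 3 wt arrays of the single pairs read 12.09 to 12.29 for *H2-K1* (1425336_x_at), and the other 7 wt arrays 11.45 to 11.71. For *H2-D1* (1425614_x_at) the order was turned round, with 9.88 to 10.003 on those 3 wt arrays and 10.48 to 10.80 on the other 7. The single pairs were singled out after these values were seen, so this is a description with no test. Of the 24 brighter member probe sets, 4 had those 3 wt arrays above the other wt arrays, all of them *H2-K1* or shared by *H2-K1* and *H2-D1*, and 3 had them below, all of them *H2-D1*. The same held for 1.58% (above) and 1.62% (below) of all probe sets over the median mean. For *B2m*, *Tap1*, *Tap2*, *Tapbp*, *Psmb8*, *Psmb9* and *Psmb10* the wt arrays of the single pairs overlapped the other wt arrays.

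The 3 tg livers of the single pairs were lower than the other 7 tg livers in 17 of the 24 probe sets, against 4.77% of all probe sets, and higher in 0, against 3.11%. *H2-D1* (1425614_x_at) read 10.03 to 10.35 on those tg arrays and 11.11 to 11.99 on the others. *Psmb8* read 8.26 to 9.01 on them and 9.37 to 10.21 on the others. For *H2-K1* (1425336_x_at) the tg ranges overlapped, with 12.20 to 12.41 on the 3 tg arrays and 12.17 to 13.24 on the other 7. For 1427746_x_at, in contrast, the 3 tg arrays read 10.91 to 11.12 and the other 7 tg arrays 11.14 to 12.03, while the wt arrays of the single pairs (10.80 to 10.97) lay above the other wt arrays (10.115 to 10.51). *H2-K1* (1425336_x_at) and *H2-D1* (1425614_x_at) accordingly had r = 0.07 over the 20 arrays after the genotype means were removed. With 1452544_x_at and 1427651_x_at, which split the wt arrays alike, the *H2-K1* probe set had r = 0.07 and 0.15. With the other bright *H2-D1* probe sets its r was higher. It was 0.62 for 1425545_x_at, 0.64 for 1451784_x_at, 0.58 for 1451683_x_at, 0.64 for 1426324_at and 0.63 for 1450170_x_at.

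**Figure D4:**
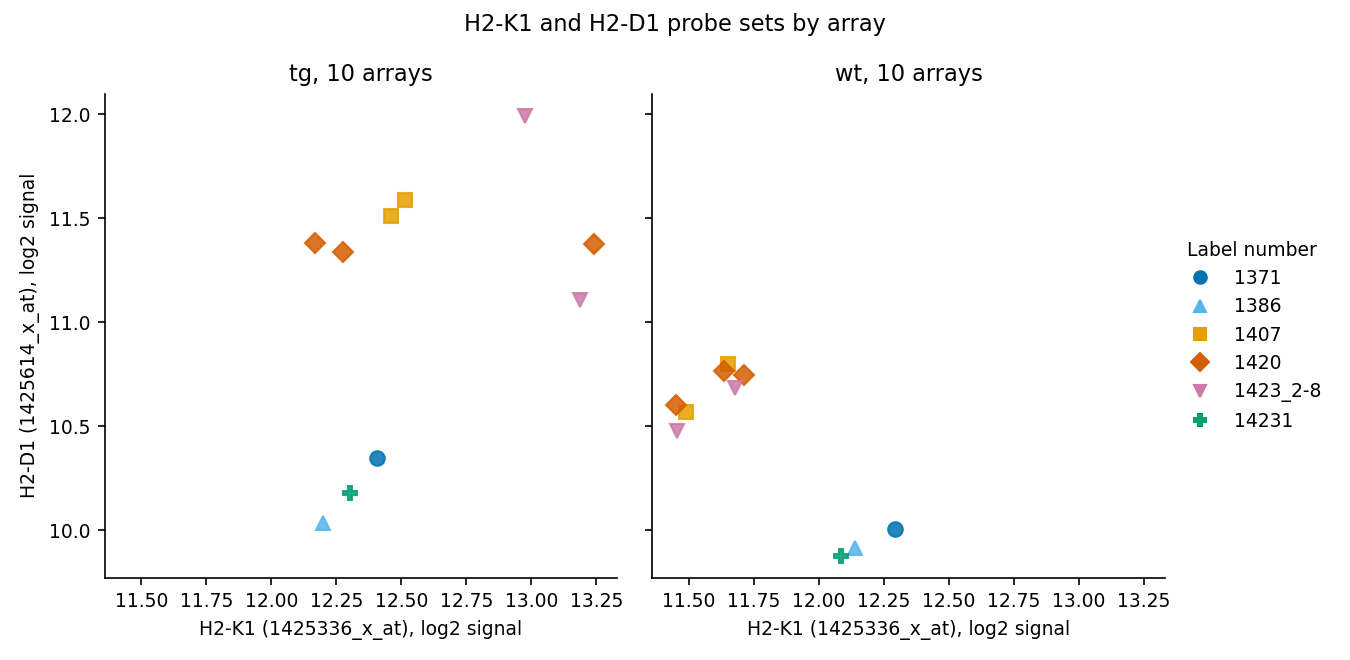
Log2 signal of *H2-D1* 1425614_x_at (vertical axis) against *H2-K1* 1425336_x_at (horizontal axis) on each array, tg left and wt right, by the number in the array name. The 3 wt arrays of the single pairs lie at 12.09 to 12.29 for *H2-K1* and 9.88 to 10.003 for *H2-D1*, away from the other 7 wt arrays. This *H2-D1* probe set is among the 3 with that split. In the brightest *H2-D1* probe set (1425545_x_at) the wt ranges overlapped.

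*H2-Ea*, a class II gene whose promoter is deleted in haplotype b and active in haplotype d, was looked at as a sign of haplotype. Its probe set 1422892_s_at read 6.25 to 6.39 on the tg arrays of the single pairs and 6.14 to 7.15 on the other tg arrays, and 6.24 to 6.56 on the wt arrays of the single pairs and 6.53 to 7.80 on the other wt arrays. The ranges of the brightest *H2-Ea* probe set (1422891_at) were 6.68 to 6.96 on the tg arrays of the single pairs and 6.69 to 7.17 on the other tg arrays, and 6.64 to 6.90 on the wt arrays of the single pairs and 6.87 to 7.44 on the other wt arrays. The ranges overlapped in both of these probe sets, and another *H2-Ea* probe set (1426202_at) was dim, with a mean of 2.30. *H2-Ea* therefore did not assign a haplotype to single mice, and the part of haplotype in the values above was not tested. With the signal of 1422891_at as a covariate, 5 of the 31 member probe sets and 188 of all probe sets were called higher. Whether that signal follows haplotype or the cells present was not tested.

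The lists of other genes of the pathway were written from general knowledge, with earlier results of these data known. Of the genes measured, 11 of 99 were higher in tg livers and 0 were lower, 1 probe set per gene. Over all genes 2.98% were higher and 0.967% lower, and these counts are descriptions with no set test. With the replicate block 13 of the 99 were higher and 1 was lower, with *H2-Bl*, *Sec61a1* and *Cd8a* added. None of these added genes was called with the nearly identical wt pairs averaged. Other class I genes of the H2 complex contributed 3 of 9, with *H2-T24*, whose mean lay below the median of all probe sets, at 0.89 ± 0.24 (SE, adjusted p = 0.0464), *H2-Q5* at 0.66 ± 0.15 (SE, adjusted p = 0.0227) and *H2-M3*, which presents bacterial formyl peptides, at 0.55 ± 0.14 (SE, adjusted p = 0.0411). *H2-Q10*, a secreted class I chain made by hepatocytes, averaged 12.25 ± 0.20 in tg livers (SD, n = 10) and 12.26 ± 0.18 in wt livers (SD, n = 8), with a difference of -0.00088 ± 0.08 (SE, adjusted p = 0.997). *H2-Bl* gave 0.24 (adjusted p = 0.128, and 0.0494 with the replicate block). Class I-like molecules outside the H2 complex gave 0 of 9, among them *Cd1d1*, which presents lipids, at 0.01 ± 0.05 (SE).

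Among the regulators, 5 of 24 were higher. *Irf7*, an interferon regulatory factor that is itself raised by interferon, had the largest difference at 1.56 ± 0.18 (SE, adjusted p = 0.000276 in limma), with means of 8.37 ± 0.52 in tg livers (SD, n = 10) and 6.89 ± 0.32 in wt livers (SD, n = 8). *Nlrc5*, the transactivator of class I genes, differed by 0.73 ± 0.16 (SE, adjusted p = 0.0212). *Irf9* and *Stat2*, which act in type I interferon signalling, differed by 0.61 ± 0.11 (SE, adjusted p = 0.00581) and 0.62 ± 0.12 (SE, adjusted p = 0.0112), and *Ifngr1*, a chain of the interferon gamma receptor, by 0.60 ± 0.13 (SE, adjusted p = 0.0206). *Irf1*, which interferon gamma raises, gave 0.08 ± 0.12 (SE, adjusted p = 0.763). The NF-kB subunit *Rela* gave 0.09 (adjusted p = 0.538) and *Ifnar2*, a chain of the type I interferon receptor, -0.29 (adjusted p = 0.0917).

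Of the upstream ligands 0 of 9 were called. *Ifnb1*, which encodes interferon beta, had a mean of 3.99 over all arrays, below the median of all probe sets. It differed by -0.04 (adjusted p = 0.807 in limma). A change is harder to read at so low a signal, and 6 of the 9 lay below that median. Peptide loading and trimming partners gave 0 of 16, among them *Calr* at 0.02, *Canx* at 0.07, *Pdia3* at 0.09 and *Hspa5*, the chaperone BiP, at 0.29 (adjusted p = 0.105). With the replicate block 1 of these was higher, *Sec61a1*, a channel subunit of the endoplasmic reticulum, at 0.16 (adjusted p = 0.0691 without the block and 0.0419 with it). Of the proteasome genes, the activator subunit *Psme1* was higher by 0.24 ± 0.05 (SE, adjusted p = 0.0214), and the core subunits *Psma1* and *Psma5* by 0.33 ± 0.07 (SE, adjusted p = 0.0144) and 0.19 ± 0.05 (SE, adjusted p = 0.0385), 2 of 16. The constitutive catalytic subunits *Psmb5*, *Psmb6* and *Psmb7*, whose place the members *Psmb8*, *Psmb9* and *Psmb10* take, gave 0.17, 0.30 and 0.08, with 0 of 3 called (adjusted p = 0.102, 0.0610 and 0.593). Whether the immunoproteasome subunits changed more than these was not tested. Receptors that read class I, such as *Cd8a* and *Klrk1*, gave 0 of 10, and 9 of these 10 lay below the median of all probe sets. *Cd8a*, a chain of the CD8 co-receptor, gave -0.19 (adjusted p = 0.0601, and 0.0452 with the replicate block).

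**Figure D5:**
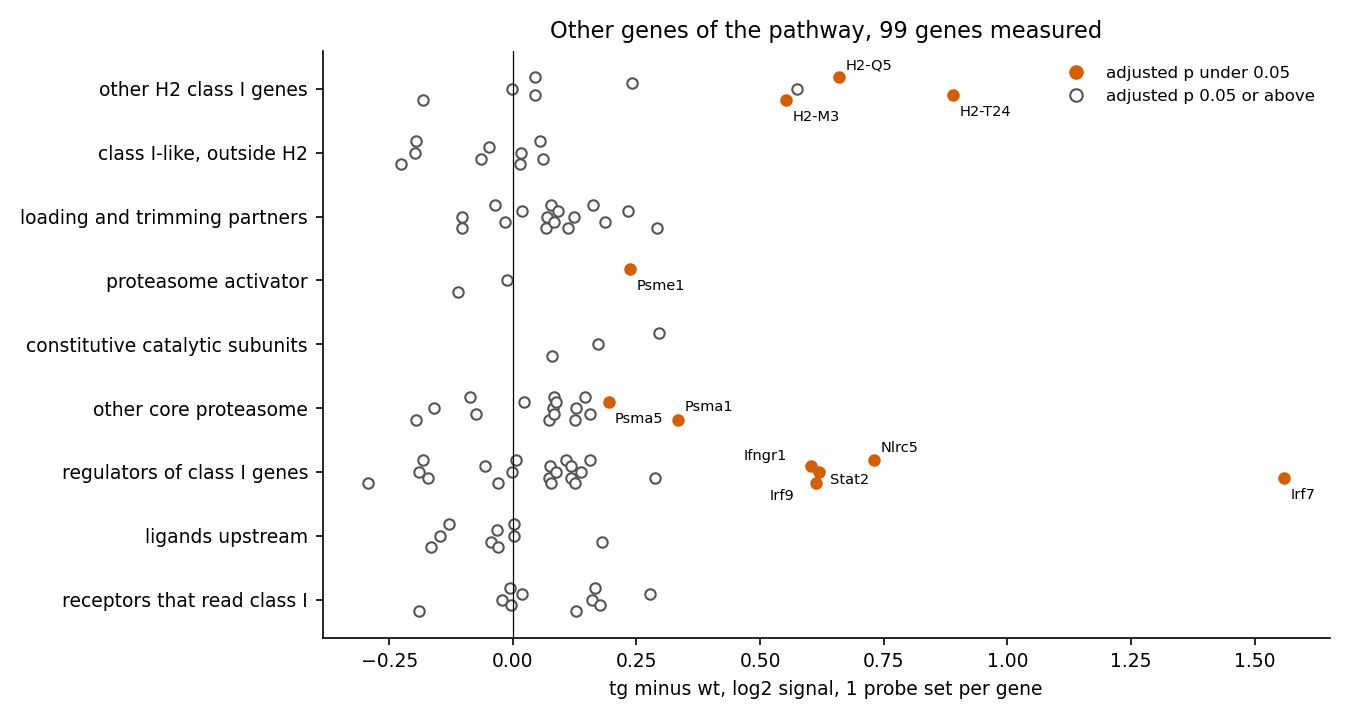
Difference between tg and wt livers (log2 signal, tg minus wt, 1 probe set per gene) for 99 other genes of the pathway in 9 lists, filled and named where the adjusted p is under 0.05. The 11 filled points lie between 0.19 (*Psma5*) and 1.56 (*Irf7*), and loading partners, ligands and receptors show 0.

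Several bright class I probe sets are annotated to 2 or more genes and belong to none of the lists. The probe set of *H2-Q9* and *H2-Q7*, non-classical chains of the Qa-2 kind, read 8.37 to 10.87 in tg livers and 6.66 to 8.78 in wt livers, with a difference of 1.70 ± 0.33 (SE, adjusted p = 0.0106 in limma). That of *H2-Q6* and *H2-Q8* differed by 1.93 ± 0.33 (SE, adjusted p = 0.00363), and 1 of the probe sets of *H2-T9*, *H2-T22* and *H2-T10*, of which *H2-T22* and *H2-T10* encode ligands of gamma delta T cells, by 1.49 ± 0.29 (SE, adjusted p = 0.0120). In the *H2-Q9* and *H2-Q7* probe set the wt arrays of the single pairs lay at 8.54 to 8.78 and the other wt arrays at 6.66 to 7.47, the same order as for *H2-K1*. The activator partner of *Psme1*, read by a probe set shared by *Psme2b* and *Psme2*, differed by 0.32 ± 0.06 (SE, adjusted p = 0.00623).

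Most macrophage and general leukocyte markers were higher in tg livers, while few markers of other cell types were called, where 2.98% of all genes were higher and 0.967% lower. Of 12 markers of Kupffer cells and other macrophages, 8 were higher in tg livers, among them *Cd5l* (0.79) and *Clec4f* (0.60), and their mean log2 signal was 7.75 to 8.44 in tg livers and 7.44 to 8.00 in wt livers. Of 5 genes of all leukocytes, 3 were higher, with a mean of 6.26 to 7.28 in tg livers and 6.11 to 6.57 in wt livers. Of 12 T and NK cell markers, *Cd8a* and *Klrk1* among them, 0 were called, 9 lay below the median of all probe sets, and their mean was 4.02 to 4.34 in tg livers and 4.09 to 4.23 in wt livers. B cell markers gave 0 of 6, with means of 4.87 to 5.19 in tg livers and 4.71 to 5.56 in wt livers. Neutrophil markers gave 0 of 6, with means of 4.75 to 6.77 in tg livers and 4.66 to 5.84 in wt livers. Hepatocyte markers gave 0 of 7, with means of 12.50 to 13.08 in tg livers and 12.50 to 13.03 in wt livers. Of 8 endothelial markers *Lyve1* was higher, with means of 6.57 to 7.07 in tg livers and 6.15 to 6.85 in wt livers, and of 8 dendritic cell markers *Cd207*, found in Langerhans cells and some dendritic cells, was lower by 1.28 on the log2 scale, with means of 4.07 to 4.37 in tg livers and 4.35 to 4.48 in wt livers. The part of macrophages and other leukocytes in the class I values was not tested.

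The genes whose signal followed a member most closely over the 20 arrays, after the genotype means were removed, came from 11766 genes above the median. For *Psmb8* these were *Ifi35* (r = 0.96), *Gbp2* (0.94), *Igtp* (0.92), *Asph* (0.91) and *H2-M3* (0.91), of which *Ifi35*, *Gbp2* and *Igtp* are known as interferon-raised genes. For *Tap1* they were *Cmtr1* (0.96), *Med23* (0.95), *Cnpy4* (0.95), *Dcp2* (0.94) and *Mapre1* (0.94). For *B2m* they were *Cybc1* (0.96), *Ccdc47* (0.94), *Cryzl1* (0.93), *Bmi1* (0.93) and *Arf1* (0.93). For *H2-K1* the values were lower, with *Zc3hav1*, an antiviral zinc finger protein (0.90), *Tirap* (0.89), *Tug1* (0.88), *Usp40* (0.88) and *Cacul1* (0.88). Among members, *Psmb8* and *Psmb9* had r = 0.95, *Tap1* and *Psmb9* 0.91, and *Psmb8* and *Psmb10* 0.64. All of these are descriptions over arrays that share a normalization.

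The count of member calls leaned on few arrays, and so did that of all probe sets. Over all probe sets the 850 called higher became 245 with the nearly identical wt pairs averaged. They became 69 without the 4 arrays named tg_1423_2-8 or wt_1423_2-8, and 158 without tg_1423_2-8_1, tg_1423_2-8_4 and tg_1420_4. Of the 31 probe sets, 7 were called higher with the nearly identical wt pairs averaged, 2 without the 4 arrays named tg_1423_2-8 or wt_1423_2-8, and 6 when tg_1423_2-8_1, tg_1423_2-8_4 and tg_1420_4 were left out. *H2-K1* (1427746_x_at) and the probe set of *H2-T-ps* and *H2-T23* (1449556_at) kept their calls in all 20 fits with an array left out and in all 13 other alternatives. *Tap1* (1416016_at), *Psmb8* (1422962_a_at) and the probe set of *H2-K1* and *H2-D1* (1424948_x_at) kept theirs in all 20 fits with an array left out and in 12 of 13 others, and lost it without the tg_1423_2-8 and wt_1423_2-8 arrays. *Psmb9* lost its call without those arrays, without tg_1420_4 and the tg_1423_2-8 arrays, and with *H2-Ea* as a covariate. *Tap2*, *Tapbp*, both probe sets of *B2m*, all 4 called ones of *H2-D1*, and 1451931_x_at and 1450534_x_at of *H2-K1* lost theirs in these 3 fits and with the wt pairs averaged. Of these, 1450534_x_at also lost its call after renewed quantile normalization, with array weights and with *Xist* as a covariate. The *H2-D1* probe sets 1451683_x_at and 1426324_at also lost theirs with other empirical Bayes settings and with array weights. The brightest *H2-K1* probe set (1425336_x_at) lost its call without the tg_1423_2-8 and wt_1423_2-8 arrays and with *H2-Ea* as a covariate.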

How the data were processed

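RNA from 10 livers of *IMP2-2* tg mice and 10 of wt mice was hybridized to Affymetrix Mouse Genome arrays, 1 array per liver by the labels. The authors deposited log2 values made by RMA, and the sources used here give no version. All 45101 probe sets were used as deposited, with 0 columns left out. Groups come from the sample labels.

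Probe sets were named from the annotation supplied for the array (34958 with 1 symbol, 932 with several, 9211 with none listed). Every probe set of the 10 members is given. Of the pathway lists, genes past the threshold and the brightest others were eligible for naming, and for *H2-K1*, *B2m*, *Tap1* and *Psmb8* the 5 genes with the highest r. A gene with several probe sets is read by the brightest. Members and lists were chosen with earlier results of these data known.

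limma 3.58.1 in R 4.3.3 fitted genotype to all 20 arrays, with Benjamini-Hochberg adjustment over all probe sets and 0.05 as the threshold. Standard errors are those of the fit. Figures were drawn with matplotlib 3.10.9. Whether equal label numbers pair the arrays was checked by correlating deviations from the genotype means between tg and wt arrays of 1 number. The r was 0.184 to 0.404, above 0.1 in every number, and 5 of 6 numbers correlated best with themselves, so the fit with the replicate block is given where it changes a call. Whether arrays of 1 genotype are separate mice is known only from the labels. The fit was tested on simulated data. Alternatives were the label number as a fixed or random block, quantile normalization, centring, a filter on dim probe sets, empirical Bayes settings, array weights, *H2-Ea* or *Xist* as a covariate, averaged or left-out arrays, and another choice of probe set. Promoters come from RefSeq for GRCm38.p6.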

Additional observations from a re-analysis of the deposited data

Results flagged for a closer look

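In a group of 10 arrays, 1 value that stands far from the nearest other array was found in 2 groups, where each of the 31 probe sets was looked at in each genotype and chance gives about 1 such group in 20. The dim *H2-D1* probe set 1451934_at read 2.64 on tg_14231_6, with 2.93 as the next lowest tg value. The dim probe set 1419658_at of *H2-T-ps* and *H2-T23* read 5.09 on tg_1420_4, with 4.28 as the next highest tg value. Neither probe set was called between genotypes.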

How the results depend on the processing

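The count of member probe sets called higher, 17 in the fit reported, was 22 with the replicate block as a fixed term, which ended no call and added 3 probe sets of *H2-D1*, that of *H2-Q5* and *H2-K1*, and *Psmb10*, and 14 to 20 under the other normalization, filter, weight and *Xist* settings and without tg_1386_9 and wt_1386_4. It was 7 with nearly identical wt pairs averaged, 2 without the tg_1423_2-8 and wt_1423_2-8 arrays, 6 without tg_1420_4, tg_1423_2-8_1 and tg_1423_2-8_4, 5 with *H2-Ea* as a covariate, and 9 to 24 with each array left out. It was 9 without tg_1423_2-8_4, 10 without tg_1420_4, tg_1423_2-8_1, wt_1407_2 or wt_1420_6, and 11 without tg_1407_3. None was called lower in any of these fits.

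The 11 pathway genes called higher became 13 with the replicate block, 4 with wt pairs averaged, 1 (*Irf7*) without the tg_1423_2-8 and wt_1423_2-8 arrays, 3 without the 3 tg arrays, 3 with *H2-Ea*, and 8 to 18 with an array left out, the 18 without tg_1386_9. The 0 called lower became 1 (*Cd8a*) with the replicate block as a fixed term or as a random block, and 0 to 3 with an array left out (*Cd8a*, *Fcgrt* and *Ifnar2* without tg_1386_9).

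Over all probe sets, 850 higher became 1634 with the replicate block, 245 with wt pairs averaged, 69 without the tg_1423_2-8 and wt_1423_2-8 arrays, 158 without the 3 tg arrays, 188 with *H2-Ea* and 391 to 1684 with an array left out. The 299 lower became 607 with the replicate block as a fixed term, 542 as a random block (consensus correlation 0.0820), 476 after quantile normalization, 156 with centring, 163 with array weights, 31 with wt pairs averaged, 484 without tg_1386_9 and wt_1386_4, 5 without the tg_1423_2-8 and wt_1423_2-8 arrays, 8 without the 3 tg arrays, 20 with *H2-Ea* and 72 to 776 with an array left out. Fewer arrays or degrees of freedom entered where arrays were dropped or averaged, and otherwise the cause was not tested.

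Signs turned only in 3 dim probe sets that are not called. The *H2-D1* probe set 1451934_at, 0.0166, was -0.0045 with array weights, -0.0114 without the tg_1423_2-8 and wt_1423_2-8 arrays, -0.0118 without the 3 tg arrays and -0.0144 to 0.0518 with an array left out. *Tap1* 1448177_at, -0.0074, was 0.0243 after quantile normalization, 0.0162 with centring, 0.0088 with array weights, 0.0053 without tg_1386_9 and wt_1386_4, 0.0461 without the tg_1423_2-8 and wt_1423_2-8 arrays, 0.0218 without the 3 tg arrays, 0.0029 with *H2-Ea* and -0.0581 to 0.0298 with an array left out. The probe set 1422348_at of *Gm38417*, *H2-Q2* and *H2-D1*, 0.0233, was -0.0075 to 0.0508 with an array left out. The median over all 4 *Tap1* probe sets gave 0.05 in place of 1.15. With signals near background, the differences of the dim probe sets named here could not be told from 0.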
